A study of Mus musculus with 41 samples.

Results

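Transcripts of 4 fibroblast growth factor (FGF) ligands, Fgf4, Fgf5, Fgf8 and Fgf15, and of 2 FGF receptors, Fgfr1 and Fgfr2, were followed in mouse embryonic stem (ES) cells with and without Esrrb as they left naive culture. The 6 genes were chosen by name, and all 6 were among the 16967 of 55487 genes that had at least 1 CPM (reads scaled to the library total) in at least 3 libraries. All cells were of the E14 ES cell line. The groups were the Esrrb-depleted lines KO2 (15 libraries) and KO3 (11 libraries) and the Esrrb wild-type line WT (15 libraries), so each genotype rests on 1 or 2 lines, and differences between lines other than Esrrb cannot be told apart from its loss. The Esrrb protein is a nuclear receptor with no known natural ligand that helps to hold ES cells in the naive state. In 2iL, the naive condition, the cells grew on gelatin in N2B27 with 1 µM PD0325901, an inhibitor of the ERK-activating kinase MEK, 3 µM CHIR99021, an inhibitor of GSK3, and LIF. For the formative condition the cells spent 1 day in N2B27 on fibronectin and were then sampled after 1, 3 or 5 days in AloXR, which holds 3 ng/ml activin A, 2 µM of the tankyrase inhibitor XAV and 1.0 µM of the retinoic acid receptor inverse agonist BMS439. The labels list neither FGF nor a MEK inhibitor for AloXR. Each line had 3 libraries in 2iL and 4 at each AloXR day, except KO3 with 2 libraries at day 3 and 2 at day 5.

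FGF ligands are secreted proteins that bind receptor tyrosine kinases together with heparan sulphate, and the bound receptors signal through RAS, MEK and ERK to the nucleus. ES cells make Fgf4 themselves, and FGF4 acting through FGFR1 is the main signal that drives ERK and lets naive cells begin to differentiate. Blocking that signal is the role of PD0325901 in 2iL. Fgf5 is the classical marker of the epiblast after implantation, Fgf8 and Fgf15 are ligands of the later epiblast and of the early nervous system, and Fgfr2 is best known from trophoblast and primitive endoderm, which read the FGF4 made by the epiblast.

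RNA was read with QuantSeq, which yields 1 tag near the 3′ end of a polyadenylated transcript, so levels are not scaled by transcript length. Libraries held 3424064 to 5736053 assigned reads, and 3 reads correspond to 0.523 to 0.876 CPM. Esrrb itself checked the labels: its tags were at 51.99, 55.19 and 56.70 CPM in KO2 and 102.77, 135.62 and 165.62 CPM in KO3, against 434.35, 380.79 and 308.95 CPM in WT, under 2iL. Which part of the gene was deleted is not stated in the labels, and tags near the 3′ end do not measure functional protein. At day 1, KO3 held 26.14 to 41.35 CPM of Esrrb, above the 12.15 to 17.75 CPM of WT, and at day 3 the library group labelled KO3 held 4.87 and 6.17 CPM, above the 1.19 to 1.83 CPM of WT. Esrrb tags were thus called higher in KO3 than in WT at day 1 (1.11, adjusted p = 0.0020) and day 3 (1.33, adjusted p = 0.0026), and also in the average of both lines at day 3 (0.74, adjusted p = 0.026). The third 2iL library of each line stood apart, with 107 to 121 CPM of the formative gene Dnmt3b where the other 6 held 39.7 to 59.9 CPM. Where leaving out this library in each line changed a call of the 6 genes, the value without it is given beside the result or with the processing alternatives.

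Summed tags of 14 trophoblast markers were at 563 CPM in KO2 and 577 CPM in KO3, against 163 CPM in WT, at day 3, and 10 of its 12 measured genes were called higher there, although Prl3d1 was at 0 in every group and Cdx2 reached at most 1.65 CPM at that day. The 14 primitive endoderm markers summed to 797 CPM in KO2 and 1630 CPM in KO3, against 730 CPM in WT, at day 5. Among the 13 measured, 8 were called higher and 0 lower in the average of both lines, with a median difference of 1.35. The shares of all genes were 8.96% higher and 11.8% lower, with a median of 0. Gata6, a defining gene of primitive endoderm, ranged over 0.22 to 0.71 CPM in KO2 libraries at that day. KO3 libraries held 13.04 and 15.85 CPM of Gata6 and WT libraries 0.22 to 1.09 CPM. The naive markers fell together in every line after 2iL, with summed levels of 1162 CPM in KO2, 1335 CPM in KO3 and 2056 CPM in WT in 2iL and at most 96.7 CPM in any group mean later, and the formative markers were at 1809 to 3351 CPM at every AloXR time. In such bulk libraries, fewer cells of a type and less RNA per cell cannot be told apart, and the part of other cell types in the results below was not tested.

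The promoter sequences of Fgf4 and Fgf5 are shown because these ligands moved in opposite directions between 2iL and day 3 in WT, where Fgf4 fell and Fgf5 rose. Of the 6 genes, 3 (Fgf4, Fgf5 and Fgfr2) had an entry in RefSeq's table of promoters, which spans 250 bases before to 50 bases after each start (GRCm38.p6). Both strands were searched for AAGGTCA, the core element bound by Esrrb, for the GC box GGGCGG and for TATAAA, a form of the TATA box. None of the 3 windows held AAGGTCA, which occurred in 4.72% of 32851 promoters, and the absence says only that these letters are not in these windows. Capitals mark the motifs found, and the motifs did not overlap.
Fgf4, chr7:144861136-144861435, plus strand: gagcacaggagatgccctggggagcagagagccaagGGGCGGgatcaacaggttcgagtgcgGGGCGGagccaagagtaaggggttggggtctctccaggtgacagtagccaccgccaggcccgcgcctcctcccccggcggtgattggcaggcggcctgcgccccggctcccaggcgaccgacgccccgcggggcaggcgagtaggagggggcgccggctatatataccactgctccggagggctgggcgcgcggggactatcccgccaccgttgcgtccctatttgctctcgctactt
Fgf5, chr5:98253934-98254233, plus strand: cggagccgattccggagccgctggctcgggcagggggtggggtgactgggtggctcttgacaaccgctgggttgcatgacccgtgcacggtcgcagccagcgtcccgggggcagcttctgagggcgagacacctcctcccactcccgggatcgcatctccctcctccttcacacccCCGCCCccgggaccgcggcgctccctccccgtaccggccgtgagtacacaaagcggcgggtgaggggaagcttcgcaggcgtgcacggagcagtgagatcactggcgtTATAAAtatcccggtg
The Fgf4 window held GGGCGG at -214 and -188 from the start. The Fgf5 window held GGGCGG on the reverse strand at -74, and TATAAA at +35, which is after the start. GGGCGG occurred in 35.7% of all promoters and TATAAA in 13.6%. Other spellings of the TATA box were not searched in any window. CG dinucleotides numbered 28 in the Fgf4 window and 29 in the Fgf5 window, against 4 in that of Fgfr2 and a median of 7 over all promoters.

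Over the 4 conditions, 10 of 24 member-by-time cases were called different from WT when both depleted lines were averaged, 5 higher and 5 lower. Calling needed an adjusted p (limma, Benjamini-Hochberg) under 0.05, a difference of 0.58 or more on the log2 scale of CPM + 1, and both lines in the same direction. All genes tested were called in 16.5% of gene-by-time cases under this rule. In 2iL, 0 of the 6 genes were called higher and 1 lower, where all genes tested were called in 15.8% (8.13% higher and 7.63% lower). At day 1, 1 was called higher and 2 lower (12% of all genes, 6.39% higher and 5.58% lower). At day 3, 2 were called higher and 1 lower (17.4% of all genes, 10.8% higher and 6.55% lower), and at day 5 again 2 higher and 1 lower (20.8% of all genes, 8.96% higher and 11.8% lower). The split of all genes moved with the scaling: at day 3 it was 1838 higher and 1112 lower, and 1428 higher and 1391 lower with quantile scaling, and at day 1 it was 1085 higher and 946 lower, and 1221 higher and 696 lower when genes were centred on their neighbours. Fgf4 was called at all 4 times and changed sign between day 1 and day 3, Fgf15 was called lower at day 1 and higher at day 5, Fgfr2 was called higher at days 1 and 3 and lower at day 5, Fgf8 was called at day 3, and Fgf5 and Fgfr1 were called at no time.

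**Figure D1:**
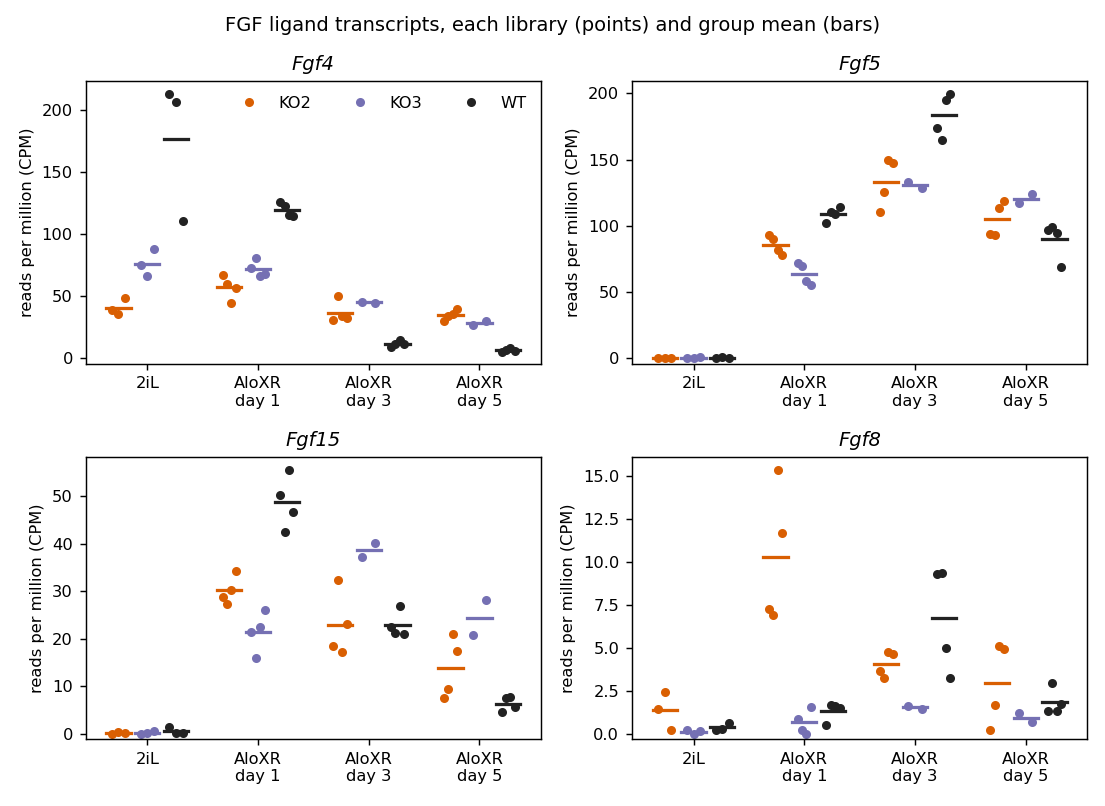
Levels of the 4 ligands in CPM (vertical axes, linear, starting at 0) for each library (points) and as group means (bars), by condition, with KO2, KO3 and WT from left to right. WT libraries of Fgf4 are above both depleted lines in 2iL and at day 1 and below both at days 3 and 5, while Fgf5 is near 0 in 2iL in every line.

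Fgf4 encodes the autocrine FGF of naive ES cells and is on chromosome 7 (144861386 to 144865245, plus strand, GRCm38.p6; ENSMUSG00000050917). It was lower in both depleted lines in 2iL and at day 1 and higher in both at days 3 and 5. In 2iL, KO2 held 38.55, 35.31 and 48.12 CPM and KO3 held 74.96, 65.91 and 87.52 CPM, against 212.74, 205.88 and 110.49 CPM in WT. No depleted library reached the lowest WT library, and KO3 lay above KO2 with no overlap. The log2 difference of both lines from WT was -1.60 ± 0.17 (SE, adjusted p = 4.0e-10), with -2.04 ± 0.20 in KO2 and -1.15 ± 0.20 in KO3. Between the depleted lines, Fgf4 was higher in KO3 by 0.89 ± 0.20 (adjusted p = 0.0016), a call that ended when only the groups compared were fitted (adjusted p = 0.0571). Without the third 2iL library of each line, the difference of both lines from WT was -2.016 (adjusted p = 1.46e-12).

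At day 1, Fgf4 was at 67.02, 60.01, 44.25 and 56.43 CPM in KO2 and 72.26, 80.71, 65.77 and 67.98 CPM in KO3, against 125.83, 122.50, 115.34 and 114.67 CPM in WT. The depleted libraries were all below the WT libraries, by 0.90 ± 0.15 on the log2 scale (adjusted p = 7.4e-06). At day 3 the order was the reverse. KO2 held 30.38, 49.96, 33.97 and 32.58 CPM and KO3 held 45.44 and 44.76 CPM, against 8.93, 11.13, 14.94 and 11.22 CPM in WT, a difference of 1.74 ± 0.16 (adjusted p = 6.6e-12). The lowest depleted library lay above the highest WT library.

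At day 5, Fgf4 was at 29.60, 33.83, 35.62 and 39.51 CPM in KO2 and 26.81 and 29.67 CPM in KO3, against 4.58, 6.74, 8.41 and 5.46 CPM in WT. The groups again did not overlap, and the difference was 2.17 ± 0.16 (adjusted p = 1.8e-14), with 2.31 ± 0.17 in KO2 and 2.03 ± 0.21 in KO3. Within KO2, day 3 and day 5 differed from 2iL by -0.16 ± 0.18 and -0.22 ± 0.18, neither called, and within KO3 by -0.73 ± 0.22 and -1.39 ± 0.22, both called. Within WT, Fgf4 fell by 3.78 ± 0.18 between 2iL and day 3 and by 4.57 ± 0.18 between 2iL and day 5. The change from 2iL in the depleted lines minus that in WT was 0.69 ± 0.22 at day 1 (adjusted p = 0.038), 3.34 ± 0.23 at day 3 (adjusted p = 6.3e-15) and 3.77 ± 0.23 at day 5 (adjusted p = 1.6e-16). At day 1 the call ended in 9 of 21 refits that left out 1 library: WT 2iL library 1 (0.53, adjusted p = 0.21) or 2 (0.55, adjusted p = 0.18), KO2 2iL library 2, KO3 2iL library 2, WT day 1 library 2, 3 or 4, KO2 day 1 library 1 and KO3 day 1 library 2, with adjusted p of 0.054 to 0.068 for the last 7. Fgf4 at day 1 against 2iL in WT was at -0.50 ± 0.18 and not called, and was called at -0.80 (adjusted p = 1.5e-04) without the third 2iL library of each line. In KO2 the same comparison was at 0.47 ± 0.18, not called, and was called higher at 0.60 (adjusted p = 0.0052) without it, and in KO3 it was at -0.08 ± 0.18.

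Fgf5 (chromosome 5, 98254184 to 98277033, plus strand; ENSMUSG00000029337), the ligand that marks the epiblast after implantation, was near 0 in 2iL and at 55.10 to 199.36 CPM in all AloXR libraries. In 2iL it was at 0.29, 0.41 and 0 CPM in KO2, 0.44, 0.20 and 0.52 CPM in KO3 and 0, 0.52 and 0.21 CPM in WT, which are 3, 6 and 3 reads in all. No line can be ordered at that depth. At day 1 it had reached 92.88, 90.13, 81.98 and 77.70 CPM in KO2 and 72.04, 69.77, 58.06 and 55.10 CPM in KO3, against 101.85, 110.53, 108.53 and 114.24 CPM in WT. All depleted libraries were below all WT libraries, and all KO3 libraries were below all KO2 libraries. In read ratio to 2iL this was 376-fold in KO2 (95% counting interval 128 to 1825), 162-fold in KO3 (74.1 to 442) and 466.5-fold in WT (159 to 2264), where the intervals cover counting error only and rest on the few 2iL reads.

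The difference of Fgf5 from WT at day 1 was -0.56 ± 0.12 (adjusted p = 4.0e-04) for both lines, under the 0.58 needed, with -0.77 ± 0.14 in KO3 (called, adjusted p = 2.7e-05) and -0.34 ± 0.14 in KO2 (adjusted p = 0.069). At day 3, Fgf5 was at 110.55, 125.15, 149.65 and 147.57 CPM in KO2 and 133.25 and 128.45 CPM in KO3, against 174.11, 164.80, 195.19 and 199.36 CPM in WT. Every depleted library lay below every WT library, with a difference of -0.47 ± 0.13 (adjusted p = 0.0043), which also missed the fold threshold. At day 5 it was at 94.04, 93.21, 113.33 and 118.70 CPM in KO2 and 117.14 and 123.87 CPM in KO3, against 96.85, 98.87, 94.34 and 69.18 CPM in WT, and both KO3 libraries lay above all WT libraries while KO2 overlapped with WT (0.33 ± 0.13 for both lines, adjusted p = 0.041, not called). Between day 3 and day 5, Fgf5 was not called in KO2 (-0.34 ± 0.14) or KO3 (-0.12 ± 0.19) and fell by 1.03 ± 0.14 in WT.

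Fgf15 (chromosome 7, 144896532 to 144900953, plus strand; ENSMUSG00000031073), which starts 31.3 kb beyond the end of Fgf4, is a ligand of the embryonic nervous system and, in the adult gut, a hormone that limits bile acid synthesis. It was called lower in the depleted lines at day 1 and higher at day 5. In 2iL it was at 0 to 0.52 CPM in the depleted libraries and 0.21 to 1.37 CPM in WT, at or near the level of 3 reads, apart from 1 WT library. At day 1 it was at 28.87, 27.36, 30.28 and 34.35 CPM in KO2 and 21.33, 15.97, 22.50 and 25.97 CPM in KO3, against 50.23, 42.45, 55.51 and 46.68 CPM in WT, a difference of -0.92 ± 0.20 (adjusted p = 6.0e-04). The depleted libraries lay below the WT libraries with no overlap. KO3 alone was called at -1.16 ± 0.23 (adjusted p = 1.6e-04) and KO2 alone at -0.67 ± 0.23 (adjusted p = 0.034). The KO2 call held in 2 of 8 refits that left out 1 library and in 7 of 10 other alternatives.

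At day 3, Fgf15 was at 18.50, 32.30, 17.30 and 23.08 CPM in KO2 and 37.22 and 40.14 CPM in KO3, against 22.52, 21.17, 26.80 and 20.99 CPM in WT. Both KO3 libraries and KO2 library 2 stood above the WT range. By limma, neither the average of both lines (0.35 ± 0.22) nor KO3 alone (0.74 ± 0.28, adjusted p = 0.052) was called. KO3 alone was called in 5 of 10 alternatives, edgeR (adjusted p = 0.0345) and DESeq2 (adjusted p = 0.0273) among them, and over all 10 the adjusted p ran from 0.00087 to 0.193. At day 5 it was at 7.51, 9.46, 20.93 and 17.36 CPM in KO2 and 20.77 and 28.08 CPM in KO3, against 4.58, 7.53, 7.73 and 5.67 CPM in WT. The difference was 1.36 ± 0.22 (adjusted p = 3.5e-06) and 3 of 4 KO2 libraries and both KO3 libraries were above all WT libraries. KO2 libraries 1 and 2 were lower than 3 and 4. The mean of Fgf15 was highest at day 1 in KO2 and WT and at day 3 in KO3. Between day 3 and day 5 it fell by 1.71 ± 0.23 in WT and was also called lower in KO2 (-0.75). The KO2 call held in 4 of 8 refits that left out 1 library and in 6 of 10 other alternatives. In KO3 the same step was at -0.66 and not called in the main fit.

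Fgf8 (chromosome 19, 45736491 to 45742941, minus strand; ENSMUSG00000025219), which patterns the gastrulating embryo, had the lowest mean of the 4 ligands in every AloXR group and was at 0 to 15.4 CPM in the 41 libraries. In KO2 at day 1 it was at 7.28, 6.90, 15.37 and 11.72 CPM, whereas it was at 0.87, 0.22, 0 and 1.58 CPM in KO3 and 0.53, 1.68, 1.65 and 1.49 CPM in WT. KO2 did not overlap with KO3 or WT, and the KO3 minus KO2 difference was -2.79 ± 0.36 (adjusted p = 1.3e-07), while KO2 minus WT was 2.24 ± 0.36 (adjusted p = 8.1e-06). Since 1 CPM was added before the logarithm, these changes of a low gene are compressed.

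At day 3, Fgf8 was at 3.65, 3.28, 4.79 and 4.65 CPM in KO2 and 1.65 and 1.46 CPM in KO3, against 9.33, 9.39, 4.98 and 3.26 CPM in WT. Both KO3 libraries were below all WT libraries and KO2 overlapped with WT. The difference of both lines was called at -1.01 ± 0.34 (adjusted p = 0.023), and the call ended without WT library 1 (-0.84, adjusted p = 0.0996) or 2 (-0.84, adjusted p = 0.103) and without KO3 library 1 (adjusted p = 0.0546) or 2 (adjusted p = 0.0682). WT reached its highest level at day 3, where it was 2.41 ± 0.39 above 2iL. In KO2, day 3 against 2iL was called at 1.22 ± 0.39, and not without the third 2iL library of each line (0.80, adjusted p = 0.126). In KO3 it was also called higher, from 2 reads in 2iL. That call held in 0 of 5 refits that left out 1 library (adjusted p 0.0544 to 0.156) and in 8 of 11 other alternatives. Day 5 against 2iL was called in WT at 1.03 ± 0.39 (adjusted p = 0.0276), and held in 4 of 7 such refits and 8 of 11 alternatives. At day 5 the levels were 0.23, 1.66, 5.12 and 4.96 CPM in KO2, 1.21 and 0.68 CPM in KO3, and 1.31, 2.97, 1.36 and 1.75 CPM in WT. Both KO3 libraries were below all WT libraries, KO2 overlapped with WT, and neither line was called.

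Summed over the 18 secreted ligands of the family, the tags were mostly Fgf4 in 2iL and mostly Fgf5 at days 3 and 5 in each line. The share of Fgf4 among them was 78.8% in KO2, 80.2% in KO3 and 88.3% in WT in 2iL, and 18.1% in KO2, 20.1% in KO3 and 5.03% in WT at day 3. At day 5 it was 21.7% in KO2, 15.03% in KO3 and 5.75% in WT, with no WT library above 7.20% and no depleted library below 14.8%. Fgf5 took 65.6% in KO2, 64.2% in KO3 and 81.5% in WT at day 5. The summed level of the 18 ligands was 160 ± 25.8 CPM in KO2 (SD, n = 4), 188 ± 10.1 CPM in KO3 (n = 2) and 110 ± 14.7 CPM in WT (n = 4) at day 5, and 51.4 ± 4.62 CPM, 94.7 ± 9.27 CPM and 198 ± 54.7 CPM in the same lines in 2iL (n = 3 each).

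**Figure D2:**
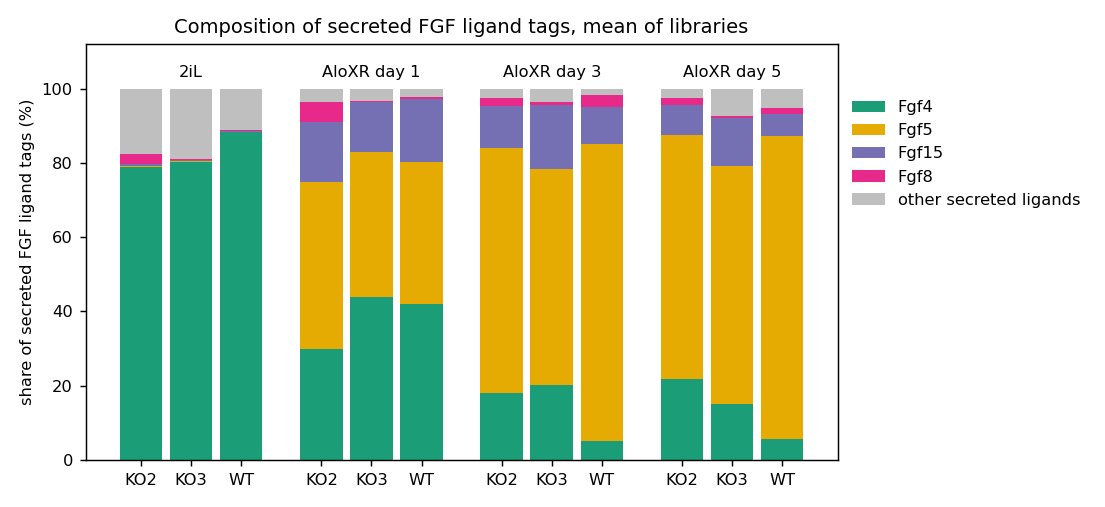
Stacked share (%) of the summed tags of 18 secreted FGF ligands that each ligand took (vertical axis), as the mean of the libraries of a group, for KO2, KO3 and WT from left to right at each condition. Fgf4 fills 78.8% to 88.3% of the bars in 2iL, and the WT bars keep 5.03% of Fgf4 at day 3 and 5.75% at day 5.

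**Figure D3:**
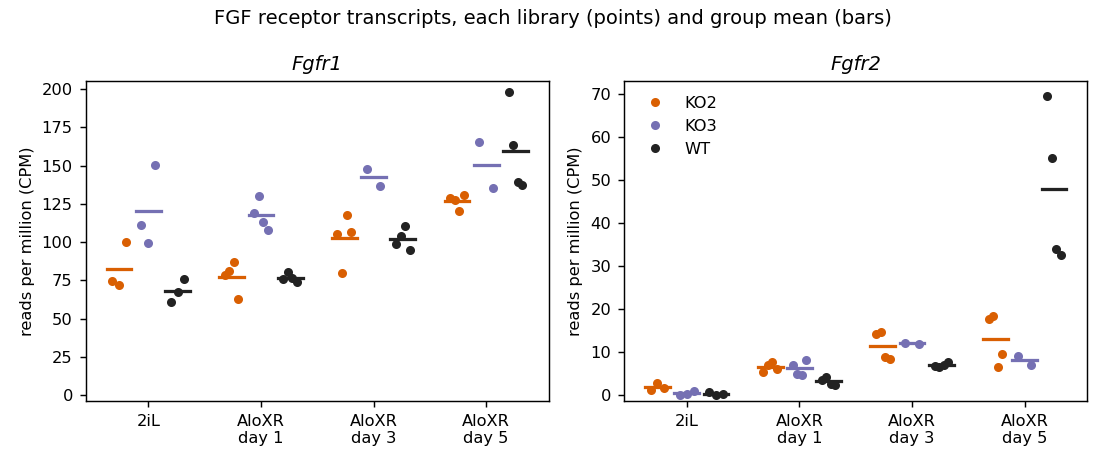
Levels of the 2 receptors in CPM (vertical axes, linear, starting at 0) for each library (points) and group means (bars), by condition, with KO2, KO3 and WT from left to right. Fgfr2 in WT at day 5 spans 32.5 to 69.6 CPM, above all other groups.

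Fgfr1 (chromosome 8, 25518759 to 25575718, plus strand; ENSMUSG00000031565), the main receptor of FGF4 in ES cells, was the more abundant receptor in every group. In 2iL, KO2 held 74.76, 72.03 and 100.01 CPM and KO3 held 111.44, 99.16 and 150.63 CPM, against 60.52, 67.41 and 75.73 CPM in WT. KO3 lay above the WT range, KO2 overlapped with it, and the difference of both lines was 0.53 ± 0.13 (adjusted p = 0.0014), under the fold threshold. KO3 alone was called at 0.80 ± 0.15 (adjusted p = 5.7e-05; 0.71 without the third 2iL library of each line, and not called when only the groups compared were fitted, adjusted p = 0.0662) and KO2 alone was not, at 0.26 ± 0.15.

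At day 1, Fgfr1 was at 78.32, 80.94, 86.87 and 62.98 CPM in KO2 and 119.27, 130.36, 112.91 and 108.18 CPM in KO3, against 76.13, 80.60, 76.76 and 73.75 CPM in WT. KO3 stood above both other lines, by 0.61 ± 0.13 against KO2 (adjusted p = 3.4e-04) and by 0.61 ± 0.13 against WT (adjusted p = 3.1e-04). The call against KO2 ended with quantile scaling (0.57) and DESeq2 (0.567), just under the fold threshold, and without KO2 library 4 (0.51) or KO3 library 2 (0.56), and the call against WT ended without KO3 library 2 (0.56). At day 3, KO2 held 105.53, 79.98, 117.97 and 106.84 CPM and KO3 held 147.64 and 136.73 CPM, against 98.62, 103.90, 110.76 and 94.80 CPM in WT, with no call for KO3 (0.48 ± 0.16). At day 5, KO2 held 128.65, 127.28, 120.01 and 130.93 CPM and KO3 held 165.45 and 135.42 CPM, against 198.29, 163.46, 139.12 and 137.26 CPM in WT. KO2 was below WT with no overlap and was not called (-0.31 ± 0.13, adjusted p = 0.063).

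The genes around Fgfr1 were also higher in KO3. Of the 50 nearest genes with at least 10 CPM, which reach from 11.6 Mb before to 8.27 Mb after its start, 44 lay above 0 in KO3 minus WT at day 1, with a median of 0.36, and 13 of the 50 were at or above the value of Fgfr1. In 2iL, 39 of the 50 lay above 0 (median 0.29), and at day 3 and day 5 46 and 42 did (medians 0.55 and 0.51). In KO2 minus WT, the same 50 genes had medians of -0.08, -0.05, 0.16 and 0.09 in 2iL and at days 1, 3 and 5, with 20, 19, 36 and 32 of them above 0. After each gene was centred on its neighbours, Fgfr1 in KO3 minus WT was at 0.51 in 2iL and 0.25 at day 1, neither called, KO3 minus KO2 at day 1 was at 0.24 (adjusted p = 0.185), and KO3 minus WT was at -0.59 at day 5 (adjusted p = 0.0033), where it was called lower. What shifted the neighbourhood was not tested.

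**Figure D4:**
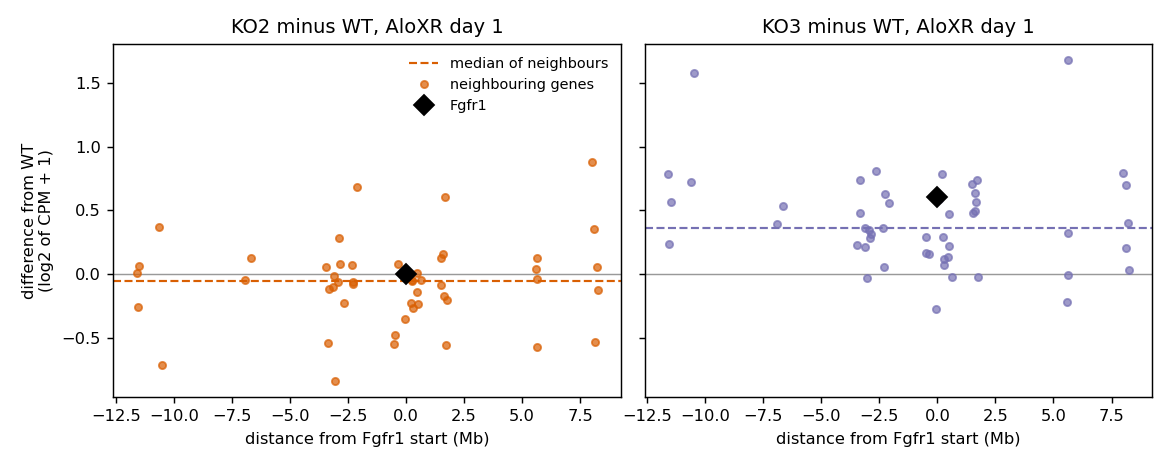
Log2 difference from WT at day 1 (vertical axis) of Fgfr1 (diamond) and its 50 neighbouring genes (points) by distance from the Fgfr1 start in Mb (horizontal axis), for KO2 (left) and KO3 (right), with the neighbours' median as a dashed line. The median is -0.05 in KO2 and 0.36 in KO3, where Fgfr1 is at 0.61.

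Fgfr1 rose over the course in KO2 and WT. Day 5 against 2iL was 0.63 ± 0.14 in KO2 (called, and 0.56 and not called with quantile scaling, 0.57 and 0.55 and not called without KO2 2iL library 1 or 2), 0.33 ± 0.16 in KO3 (not called) and 1.21 ± 0.14 in WT (called). The change from 2iL in the depleted lines minus that in WT was -0.73 ± 0.17 at day 5 (adjusted p = 0.0018). WT at day 3 against 2iL, at 0.584, sat on the threshold of 0.58. That call held in 6 of 11 alternatives and in 4 of 7 refits that left out 1 library. It ended with edgeR, DESeq2, a pseudocount of 5, quantile scaling and TMM scaling.

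Fgfr2 (chromosome 7, 130162451 to 130266808, minus strand; ENSMUSG00000030849), the receptor of trophoblast and epithelia, was above its 2iL level in every line at every AloXR time, and lower in the depleted lines than in WT at day 5. In 2iL it was at 1.17, 2.84 and 1.67 CPM in KO2, 0, 0.20 and 1.05 CPM in KO3 and 0.68, 0 and 0.21 CPM in WT. KO2 stood above WT there with no overlap (1.15 ± 0.31, adjusted p = 0.0050), a call that ended without KO2 library 2 (0.92, adjusted p = 0.055), with a pseudocount of 5 (0.37) and when only the groups compared were fitted (adjusted p = 0.0649). At day 1, KO2 held 5.27, 6.90, 7.69 and 6 CPM and KO3 held 6.96, 5.03, 4.71 and 8.13 CPM, against 3.50, 4.30, 2.68 and 2.34 CPM in WT. Every depleted library was above every WT library, by 0.81 ± 0.23 (adjusted p = 0.0098). This call ended with a pseudocount of 5 (0.46, adjusted p = 0.0267) and without WT library 4 (0.70, adjusted p = 0.0533), and leaving out 1 library ended the call in 3 of 8 refits for KO2 alone and in 4 of 8 for KO3 alone.

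At day 3, Fgfr2 was at 14.16, 14.63, 8.96 and 8.34 CPM in KO2 and 12.13 and 11.92 CPM in KO3, against 6.70, 6.55, 7.12 and 7.60 CPM in WT. The depleted libraries were all above the WT libraries, and the call (0.66 ± 0.25, adjusted p = 0.047) ended in 8 of 10 refits that left out 1 library and in 7 of 10 other alternatives. At day 5, KO2 held 17.76, 18.45, 6.46 and 9.57 CPM and KO3 held 9.18 and 7.02 CPM, against 69.59, 55.28, 34.10 and 32.52 CPM in WT. The lowest WT library lay above the highest depleted library, and the difference was -2.10 ± 0.25 (adjusted p = 1.1e-08). In WT, libraries 1 and 2 were higher than 3 and 4, and the same was so in KO2.

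In read ratio, Fgfr2 at day 5 was 6.44-fold above 2iL in KO2 (95% counting interval 4.29 to 10.1), 17.5-fold in KO3 (8.07 to 45.2) and 155-fold in WT (60.5 to 572, from 4 reads in 2iL). The change from 2iL in the depleted lines minus that in WT was -2.72 ± 0.37 at day 5 (adjusted p = 3.0e-07), and 0.04 ± 0.37 at day 3. Among the tags of the 4 signalling receptors Fgfr1 to Fgfr4, Fgfr2 took 21.9% in WT at day 5, and Fgfr1 75.5%. Trophoblast markers summed to 289 CPM in KO2 and 499 CPM in KO3, against 316 CPM in WT, at day 5. Among the 12 measured, 5 were called higher and 0 lower in the average of both lines, with a median difference of 0.70. The shares of all genes were 8.96% higher and 11.8% lower, with a median of 0. Elf5 was at 0 in KO3 and WT. The part of these markers in the Fgfr2 result was not tested.

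**Figure D5:**
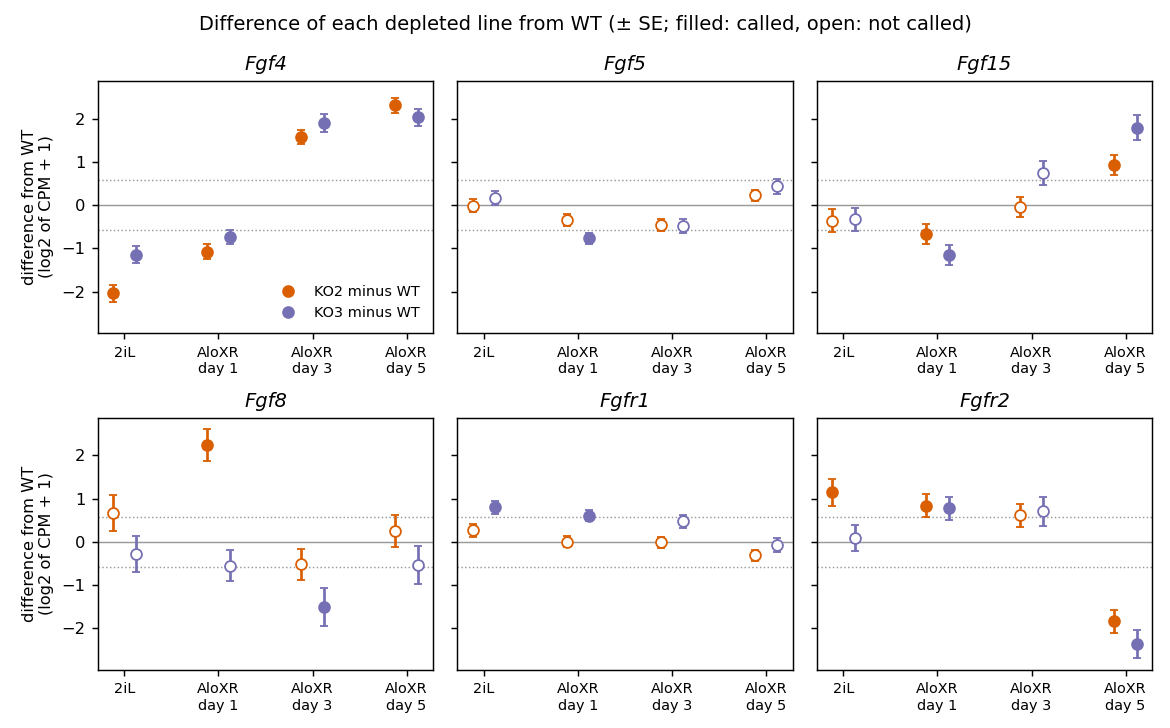
Difference of KO2 and KO3 from WT (vertical axis, log2 of CPM + 1, ± SE of the fit) for the 6 genes at each condition, KO2 left of KO3, with filled points for called differences and dotted lines at 0.58 either side of 0. Fgf4 moves from below -1 in 2iL to above 2 at day 5 in both lines, and Fgfr2 is called below WT at day 5 in both.

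Each member's 12 groups were also ordered by their mean. For Fgf4 the order ran from WT in 2iL (176 CPM) and WT at day 1 (120 CPM) through 8 depleted groups (28.2 to 76.1 CPM) to WT at day 3 (11.6 CPM) and WT at day 5 (6.30 CPM), and 8 of 11 neighbouring pairs of groups overlapped. The 3 pairs that did not were WT at day 1 against KO3 in 2iL, KO3 at day 5 against WT at day 3, and WT at day 3 against day 5. For Fgf5 the highest group was WT at day 3 (183 CPM), which did not overlap with KO2 at day 3 next to it. For Fgfr1 and Fgf8, 10 of 11 neighbouring pairs overlapped, for Fgf15 and Fgfr2 8 of 11, and for Fgf5 6 of 11.

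KO3 against KO2 gave 5 called cases of 24, 3 higher and 2 lower in KO3, against 11.1% of gene-by-time cases over all genes. By time, 2 of 6 genes were called in 2iL (7.28% of all genes), 2 at day 1 (15.1%), 0 at day 3 (7.74%) and 1 at day 5 (14.1%). At day 3, where limma at its main settings, edgeR and DESeq2 called none, Fgf15, Fgfr1 and Fgf8 had an unadjusted p under 0.05, and Fgf15 was at 0.78 ± 0.28 (adjusted p = 0.069). With a pseudocount of 5, Fgf15 was called higher (0.68, adjusted p = 0.0187). Fitting only the groups compared called Fgf15 higher (adjusted p = 0.0416) and Fgf8 lower (-0.99, adjusted p = 0.049). Against WT, each line on its own gave 2 of 6 genes in KO2 in 2iL (18%), 4 at day 1 (13.5%), 1 at day 3 (14.4%) and 3 at day 5 (17%). KO3 gave 2 in 2iL (13.3%), 5 at day 1 (15.6%), 2 at day 3 (19.1%) and 3 at day 5 (25.6%). The KO2 count at day 1 includes Fgf15, whose limits are given above.

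Over the course, the number of genes called against 2iL was 4, 4 and 4 at days 1, 3 and 5 in KO2 (all genes 30.3%, 35.8% and 34.6%), 3, 5 and 4 in KO3 (33.7%, 37.3% and 41.8%) and 3, 6 and 6 in WT (36.6%, 41.9% and 39.5%). These counts include the Fgf8 calls in KO3 at day 3 and in WT at day 5. They also include the Fgfr1 call in WT at day 3. The limits of these calls are given above. Day 3 against day 1 called 3 genes in KO2 (12.3%), 2 in KO3 (7.69%) and 5 in WT (18.8%). In KO3 these were Fgf5 and Fgf4, and the Fgf4 call held in 1 of 6 refits that left out 1 library. In KO2 they were Fgf5, Fgf4 and Fgf8, whose calls held in 5, 6 and 4 of 8 such refits. Day 5 against day 3 called 1 in KO2 (4.4%), 0 in KO3 (1.1%) and 6 in WT (14%), and in KO3, where edgeR and DESeq2 also called none, Fgf4 alone had an unadjusted p under 0.05 (-0.66 ± 0.24), with 2 libraries at each of these days. Fitting only the groups compared called Fgf4 (adjusted p = 0.0167) and Fgf15 (-0.66, adjusted p = 0.044) lower in this KO3 step. The gene called in the same step in KO2 was Fgf15, whose limits are given above. The difference of the change from 2iL was called for 2 genes at day 1 (9.17%), 1 at day 3 (14.8%) and 4 at day 5 (18%).

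Among the other 21 Fgf and Fgfr genes, 14 passed the filter. Fgf3, the ligand gene that follows Fgf15 on chromosome 7 at a gap of 53.2 kb, averaged 0.50 CPM in KO2 and 0.87 CPM in KO3, against 5.74 CPM in WT, in 2iL (-2.03 ± 0.24, adjusted p = 6.6e-09). At day 5 it averaged 0.23 CPM in KO2 and 2.12 CPM in KO3, against 0.11 CPM in WT (0.81 ± 0.23). Fgf10, a ligand of FGFR2, averaged 2.53 CPM in KO2 and 5.50 CPM in KO3, against 11.2 CPM in WT, in 2iL (-1.43 ± 0.26). Fgfr3 averaged 0.94 CPM in KO2 and 1.04 CPM in KO3, against 4.84 CPM in WT, at day 5 (-1.45 ± 0.25, adjusted p = 1.2e-05), the same direction as Fgfr2. Of the 14, 3 were called higher and 2 lower in 2iL (8.13% and 7.63% of all genes), 2 and 3 at day 1 (6.39% and 5.58%), 1 and 2 at day 3 (10.8% and 6.55%) and 2 and 3 at day 5 (8.96% and 11.8%).

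The feedback inhibitors include Sprouty and Spred proteins and the dual specificity phosphatases that dephosphorylate ERK. Of 16 measured feedback inhibitors, 2 were called higher and 1 lower in 2iL, 3 and 1 at day 1, 9 and 1 at day 3 and 8 and 0 at day 5 in the depleted lines. Their median difference from WT was 0.16, 0.17, 0.63 and 0.67 in turn, where the median of all genes was 0.04, 0.02, 0.03 and 0. Of all genes tested, 8.13% were called higher and 7.63% lower in 2iL, and 6.39% and 5.58% at day 1. The shares were 10.8% and 6.55% at day 3, and 8.96% and 11.8% at day 5. Dusp9, a phosphatase that acts on ERK, averaged 87.0 CPM in KO2 and 110 CPM in KO3, against 15.5 CPM in WT, at day 3 (2.57 ± 0.17, adjusted p = 5.7e-16). Spry4 averaged 9.99 CPM in KO2 and 18.7 CPM in KO3, against 0.86 CPM in WT, at day 5 (2.98 ± 0.26, adjusted p = 4.2e-12), and Dusp4 averaged 27.9 CPM in KO2 and 24.6 CPM in KO3, against 3.25 CPM in WT (2.699 ± 0.46).

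Of 16 genes listed as targets of the pathway, none was called higher and 1 lower in 2iL, where MEK was inhibited in every line. The counts were 4 and 1 at day 1, 8 and 0 at day 3 and 11 and 0 at day 5. Of all genes tested, 8.13% were called higher and 7.63% lower in 2iL, and 6.39% and 5.58% at day 1. The shares were 10.8% and 6.55% at day 3, and 8.96% and 11.8% at day 5. The median difference of the targets was 0.06, 0.15, 0.70 and 1.15 in turn, and that of all genes 0.04, 0.02, 0.03 and 0. Etv5, a PEA3-family factor induced by FGF, averaged 108 CPM in KO2 and 104 CPM in KO3, against 24.9 CPM in WT, at day 5 (2.05 ± 0.10, adjusted p = 5.8e-20), and Etv4 averaged 22.8 CPM in KO2 and 17.8 CPM in KO3, against 3.97 CPM in WT (2.19 ± 0.20). Phlda1 averaged 35.9 CPM in KO2 and 57.7 CPM in KO3, against 5.18 CPM in WT, at day 3 (2.92 ± 0.34). The cyclin Ccnd1 was the target called lower in 2iL, at 126 CPM in KO2 and 102 CPM in KO3, against 309 CPM in WT (-1.55 ± 0.20). Some genes of these lists respond to signals other than FGF. The trophoblast marker sums given above were also higher in the depleted lines at day 3. Primitive endoderm markers then summed to 740 CPM in KO2 and 1280 CPM in KO3, against 468 CPM in WT. The part of both was not tested.

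Of 13 genes of the relay from RAS to ERK, 0 were called in 2iL, 1 higher at day 1, 1 higher at day 3 and 1 higher and 2 lower at day 5, with Mapk3, which encodes ERK1, lower by 0.67 ± 0.14 at day 5. Of all genes tested, 8.13% were called higher and 7.63% lower in 2iL, and 6.39% and 5.58% at day 1. The shares were 10.8% and 6.55% at day 3, and 8.96% and 11.8% at day 5. Of 13 adaptor genes, Gab2, a docking protein, was called in each condition: 0.82 ± 0.30 in 2iL, 0.87 ± 0.26 at day 1, 1.5 ± 0.28 at day 3 and -1.03 ± 0.28 at day 5. At day 5 it averaged 1.30 CPM in KO2 and 2.69 CPM in KO3, against 4.84 CPM in WT. Of 23 heparan sulphate enzymes and co-receptors, 2 were called higher and 4 lower in 2iL, 2 and 3 at day 1, 3 and 4 at day 3 and 3 and 5 at day 5. The shares of all genes were those given for the relay. The syndecan Sdc4 was lower in 2iL (-1.28 ± 0.19) and the sulphatase Sulf1 higher (1.23 ± 0.15).

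The genes most like each member over the 12 group means were found among 11976 genes with a mean of at least 5 CPM in some group, by Pearson's r of log2(CPM + 1), as a description with no test since groups share lines and conditions. Fgf5 was followed by the DNA methyltransferase Dnmt3b (r = 0.99 over 12 groups and 0.98 over 41 libraries), then Sertad4 and Lysmd2 (0.99 each). Fgf4 was most like Frrs1 (0.94), Aoah (0.93) and Pole4 (0.92). Fgf15 was most like Sned1, Cnnm3 and Ftx (0.97 each), and Fgfr2 like Ptpru (0.97), Slc26a10 (0.97) and Carhsp1 (0.96). Fgfr1 was most like Shisa4, Sh3rf1 and Amn1 (0.94 each), of which Shisa4 reached r = 0.60 over libraries, and Fgf8, at its low counts, like Tmed2, Fbxo9 and Mrpl54 (0.91 each).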

How the data were processed

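The 6 genes, the gene lists and the tests were chosen with earlier results of these data known. RNA of 41 libraries of E14 cells was read by QuantSeq. The submitters' processing notes name STAR 2.7.6a, featureCounts 2.0.1 and the build GRCm38. The annotation release and the strand setting are not given in the sources used here. The deposited table holds reads scaled by the authors to CPM for 55487 genes, all 41 columns of which were used. Its values were whole reads, for 100% of 766190 values above 0 within 0.01 reads, so counts were recovered from the deposited CPM and depth was 3424064 to 5736053 reads (median 4581394). Within groups, libraries correlated at r of 0.981 to 0.995. A count of 0 allows up to 3 reads, and such limits cover counting error only.

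A pseudocount of 1 CPM was added and log2 taken; 16967 genes reached 1 CPM in 3 or more libraries. The limma package (3.58.1, R 4.3.3) estimated a mean for each group, with the 41 libraries sharing 29 residual degrees of freedom, a variance trend and robust variances. Calls needed a Benjamini-Hochberg adjusted p under 0.05 over all genes and 0.58 on the log2 scale. A fold change on this scale understates changes of low genes. The script was tested on simulated data. Alternatives were pseudocounts of 0.5 and 5, no filter, a filter of 5 CPM, quantile and TMM scaling, edgeR 4.0.16 and DESeq2 1.42.0 on the recovered counts, a fit of only the groups compared, centring on 25 neighbours each side, and leaving out libraries. For both lines against WT edgeR called 1166 genes higher and 1310 lower in 2iL, 1145 and 941 at day 1, 1648 and 1188 at day 3 and 1664 and 1721 at day 5, where limma called 1379 and 1295, 1085 and 946, 1838 and 1112, and 1520 and 2007. Genes named are the 6 members, Esrrb, the other Fgf and Fgfr genes, up to 2 called genes per pathway list and comparison with the largest change, marker genes and the 3 most similar genes per member. Markers Gata6, Cdx2, Prl3d1, Elf5 and Dnmt3b, Ccnd1 and Mapk3 were given beside the results they touch. p-values measure the spread between libraries of 1 WT line and 2 depleted lines, and the labels do not say whether libraries were separate cultures. Positions of the 6 genes, gaps between genes and promoter sequences are those of RefSeq (GRCm38.p6). Strands of the 6 genes and neighbouring genes follow GENCODE M21. Library numbers follow the order of the samples and carry no pairing.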

Additional observations from a re-analysis of the deposited data

Results flagged for a closer look

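In 2 of 42 cases (each of the 6 genes in each group of 4 libraries), 1 library lay far from the other 3, where chance gives about 1 in 20: the lowest WT library of Fgf5 at day 5 was at 69.18 CPM, and the lowest WT library of Fgf8 at day 1 was at 0.525 CPM.

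The depleted lines differed from each other in 5 cases. KO3 minus KO2 was -1.06 for Fgfr2 in 2iL, 0.891 for Fgf4 in 2iL, 0.6067 for Fgfr1 at day 1, -2.794 for Fgf8 at day 1 and 0.8706 for Fgf15 at day 5 (log2). Leaving out 1 library ended the call in 4 of 6 refits for Fgf15 at day 5 (0.64 to 1.095) and in 3 of 6 for Fgfr2 in 2iL. The Fgfr2 call rests on 7 reads in KO3 and 26 in KO2, and held in 6 of 11 other alternatives. It ended with edgeR (adjusted p = 0.0643), a pseudocount of 5, quantile scaling, centring on neighbours and fitting only the groups compared. The Fgfr1 call ended when centred on neighbours (0.24), with quantile scaling (0.57) and with DESeq2 (0.567).

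The change from 2iL differed between the depleted lines and WT, by a test of that difference, in 7 cases. It was -0.6387 for Fgf5 at day 1, 0.694, 3.336 and 3.766 for Fgf4 at days 1, 3 and 5, -2.718 for Fgfr2 at day 5, 1.705 for Fgf15 at day 5 and -0.7271 for Fgfr1 at day 5. The Fgf5 call ended under 6 of 11 alternatives: edgeR (-0.88, adjusted p = 0.645) and DESeq2 (-0.88, adjusted p = 0.666), where the change was larger, and quantile scaling (-0.49), a pseudocount of 5 (-0.55), centring on neighbours (-0.55) and fitting only the groups compared (adjusted p = 0.0842). It also ended without WT 2iL library 1 (-0.49, adjusted p = 0.114).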

How the results depend on the processing

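No paired analysis was possible because the columns carry no replicate number from the labels. Of 3834 refits of a member in a comparison, 3626 kept their side of the threshold, 150 lost a call, 58 gained one and 0 reversed a called value; values near 0 that were never called could change sign. KO2 steps between AloXR days gave 4 called cases and 2 with a pseudocount of 0.5, without a filter and when centred on neighbours, and 2 to 4 when single libraries were left out. KO3 steps gave 2 called cases, 1 without a filter, 6 when only the groups compared were fitted, and 1 to 2 when single libraries were left out. KO3 against KO2 gave 5 and fell to 3 with quantile scaling and 3 when centred on neighbours, and 4 to 7 with single libraries left out. In these cases the cause was not tested. Without the third 2iL library of each line, the differences of the change from 2iL at day 3 were also called for Fgf5 (-0.58), Fgf15 (0.95) and Fgf8 (-1.54). Scaling moved the median of all genes by at most 0.113 (WT day 5 against 2iL, DESeq2). Over all genes, a pseudocount of 5 lowered the calls of both lines against WT to 583 higher and 832 lower in 2iL, 399 and 469 at day 1, 785 and 579 at day 3 and 663 and 1094 at day 5, and fitting only the groups compared gave 642 and 743 in 2iL. Groups under 10 CPM rest on few reads, and the limits for lines with 2 libraries are wide. Among those groups are Fgf5 and Fgf15 in 2iL, with 3 to 8 reads in all in each line. Most groups of Fgf8, many of Fgfr2, and Fgf4 and Fgf15 in WT at day 5 were also under 10 CPM.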
